A study of Danio rerio with 2 samples.

Results

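Accessible sites that were called in both of a pair of zebrafish neuroblastoma libraries, but that stood far higher in the score ranking of the MYC library than in that of the MYCN library, are described here. A site entered when 1 MYCN peak and 1 MYC peak on chromosomes 1 to 25 overlapped each other by at least 1 bp and overlapped no other peak of the opposite list (a one-to-one pair), and when the percentile of its score within the MYC list exceeded the percentile within the MYCN list by 30 points or more. The score is a whole number that the peak caller gave each peak, a percentile of 100 is the highest score of a list, and tied scores share their average rank. Of 52911 one-to-one pairs, 5457 met the rule and are called MYC-higher pairs below. They made up 7.01% of the 77836 peaks of the MYC list and 7.96% of the 68559 peaks of the MYCN list.

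The libraries came from fluorescent tumour cells of MYCN transgenic and of MYC transgenic zebrafish, sorted by flow cytometry through the dbh:EGFP reporter that the cells of both groups carried, with 50000 cells entering each transposition. Each transgene had 1 library and no replicate, and the number and age of the fish and the promoter behind each transgene are not given in the sources used here. No difference between the lists can therefore be set against the spread between tumours, no p-value was computed, and intervals cover counting error only. Read counts are not part of the lists, and the depth of either library is unknown. Positions, written as chromosome, start and end, are those of the zebrafish build danRer7, for which a gene annotation was not used here, so sites are given by position, and the labelled cell type was not checked against marker genes.

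In ATAC-seq, the Tn5 transposase cuts and tags DNA that is not wrapped tightly in nucleosomes, and the sites of frequent cutting, called as peaks, include promoters and enhancers. MYC and MYCN are related transcription factors of the basic helix-loop-helix family. They bind E-box sequences together with their partner MAX, largely at sites that are already accessible. Neuroblastoma arises from the sympathoadrenal lineage of the neural crest. The dbh gene encodes dopamine beta-hydroxylase, which makes noradrenaline and is active in that lineage.

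The MYC-higher pairs were mostly sites of middle rank in MYC and of low rank in MYCN. Their median score was 167 in MYC (quartiles 123 and 230) and 55 in MYCN (quartiles 43 and 70), and the median percentiles were 64.9 and 21.7. The sites were chosen by these scores, which are the authors' own and need not be on 1 scale in the 2 libraries, so their values are a description and no test of them was made. The pairs were 10.3% of all one-to-one pairs, and 6.07% (3210 pairs) stood 30 points or more higher in MYCN. The order of these counts rested on the ranking. With percentiles taken among the one-to-one pairs alone, 3946 pairs stood higher in MYC and 4316 higher in MYCN. With the MYC list trimmed to the length of the MYCN list, the counts were 3764 and 4042. Which class was the larger one thus reversed in both of these settings.

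**Figure D1:**
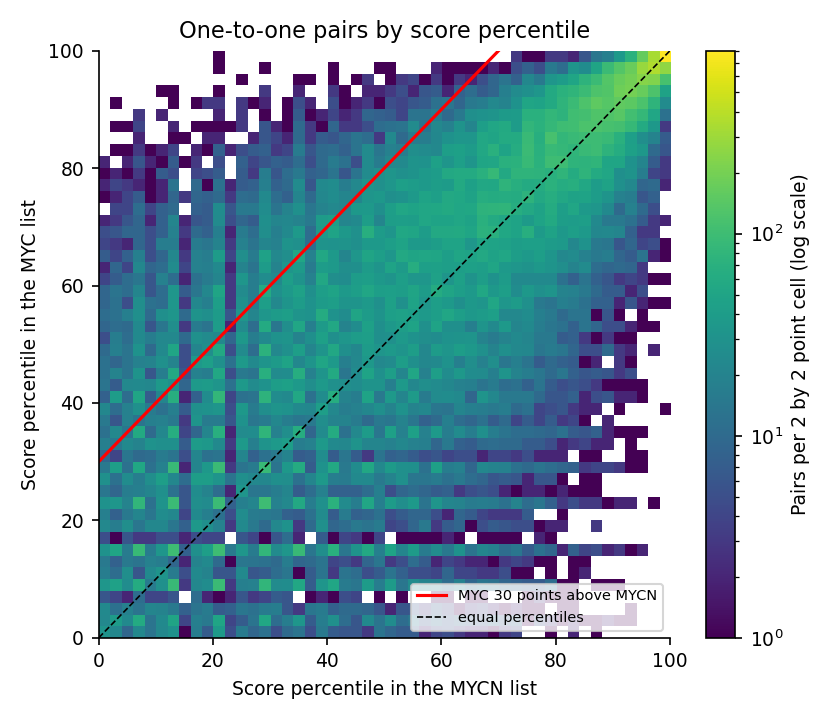
Each cell counts one-to-one pairs by score percentile in the MYCN list (x axis) and the MYC list (y axis), on a logarithmic colour scale. The 5457 MYC-higher pairs lie on or above the red line, where the MYC percentile is 30 points above the MYCN percentile, and the densest cells lie at the top right, where both lists rank a site high.

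Few of these sites were among the highest-scored of the MYC library. In MYC, 154 of them reached the 90th percentile, 1258 lay from the 75th to the 90th, 3091 from the 50th to the 75th and 954 below the median. In MYCN, 1283 lay below the 10th percentile and 274 at or above the median, where the rule allows at most a percentile of 70. Most of the sites, 4229 of 5457 (77.5%), were above the median of MYC and at or below the median of MYCN. The difference was under 40 points in 2920 pairs and 70 points or more in 72. All these counts use the percentiles by which the rule chose the sites. The upper quartile of the MYC percentile was 75.4 for these sites, against 82.0 over all one-to-one pairs.

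Only 1 site belonged to the highest decile of MYC and the lowest decile of MYCN. In MYC it spanned chr7:36366520-36367007 and scored 413 (percentile 90.8), and in MYCN it spanned chr7:36366721-36366927 and scored 31 (percentile 3.18). Its difference of 87.6 points was the largest of all, and the nearest other MYC-higher pair was 154621 bp away.

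The 12 sites with the largest differences lay on 10 chromosomes, with MYCN scores of 20 to 43 against MYC scores of 283 to 444. The next site after the leading one also lay on chromosome 7, at 21455759 to 21456538, and scored 344 in MYC and 31 in MYCN. A site on chr3:31358957-31359369 scored 394 and 38. A site on chr23:31860784-31861559 scored 341 and 34, and a peak called in MYCN alone lay 350 bp from it. All 3 sites stood above the 86th percentile in MYC and below the 8th in MYCN.

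Near the start of their chromosomes lay a site on chr13:716347-716736, with scores of 306 in MYC and 30 in MYCN, and a site on chr18:717107-717560, with scores of 283 and 20. The MYCN score of 20 stood at percentile 0.14, close to the smallest deposited score, 13. On chr5:3518292-3518765 the scores were 444 in MYC, the highest of the 12, and 43 in MYCN. Chromosome 4 held 2 of the 12, at 10783521 to 10783890 (369 and 38) and at 11023321 to 11023718 (361 and 38). The other sites lay on chr19:48233551-48233885 (365 and 38), on chr9:37468535-37468911 (363 and 38) and on chr14:23206088-23206616 (285 and 27). The peak was wider in MYC at 12 of the 12 sites, and the MYC peak held the whole MYCN peak at 11.

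The 8 MYC-higher pairs with the highest MYC scores were a different set, and none was among those 12. The highest, chr16:56976549-56976999, scored 752 in MYC (rank 743 of 77836) and 55 in MYCN (tied from rank 52589 of 68559). The difference was 77.4 points. A site on chr9:34259933-34260378 was alike, with scores of 646 and 55 and a difference of 76.1 points. These were the only ones of the 8 below the 25th percentile of MYCN.

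The other 6 were of middle rank in MYCN, so that their large MYC scores gave smaller differences. On chromosome 20, a site at 47674555 to 47674968 scored 663 in MYC and 131 in MYCN, and a site at 37818990 to 37819443 scored 634 and 122. A site on chr23:35197819-35198402 scored 654 and 149, and passed the rule by a narrow margin, at 30.3 points. Sites on chr11:23170617-23170999 (629 and 126), on chr2:41720802-41721436 (621 and 101) and on chr15:44596851-44597416 (608 and 95) differed by 36.5 to 48.4 points.

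The threshold of 30 points marked no step in the values. The 3 pairs just inside it lay on chr13:15268485-15269195, chr15:26084958-26085502 and chr16:57333476-57333752, and each scored 141 in MYC and 63 in MYCN. Just outside it, pairs on chr3:18377607-18378110 and chr14:6526649-6527021 scored 194 in MYC and 80 in MYCN, and a pair on chr19:34271771-34272082 scored 153 and 67. Such ties are common, since the scores are whole numbers: the MYCN list held 833 distinct scores and the MYC list 1001.

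At these sites the MYC peak was usually the wider one and enclosed the MYCN peak. The median width was 384 bp in MYC (quartiles 312 and 491) and 261 bp in MYCN (quartiles 216 and 361), and the median of the width ratio within pairs was 1.36 (quartiles 1.14 and 1.66). The MYC peak was wider in 4850 pairs, or 88.9%, against 64% of all one-to-one pairs. It held the whole MYCN peak in 3608 pairs, or 66.1%, against 39.4% of all pairs. The MYCN peak held the whole MYC peak in 120 of the 5457 pairs, against 8320 (15.7%) of all one-to-one pairs. The centres of the paired peaks lay a median of 34 bp apart (quartiles 15.5 and 67.5), against 27 bp for all one-to-one pairs. Overlap was required by the rule, so nearby centres are largely built in. Widths were not used by the rule, but they come from the same read coverage as the scores, so they are not independent of it.

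Evenly ranked pairs, whose percentiles differed by at most 5 points, gave a median width ratio of 1.05 over 14025 pairs. Those pairs mostly had higher scores than the MYC-higher pairs. A subset of 1468 of them was therefore also taken, with a mean percentile between the quartiles of the MYC-higher pairs, 33.2 and 53.4. There the median ratio was 1.06, and 61.8% were wider in MYC. The MYCN-higher pairs had a median ratio of 0.80. The MYCN peak had the smallest width of either list, 200 bp, in 733 MYC-higher pairs (13.4%) and in 7 of the 1468 evenly ranked pairs. Over all one-to-one pairs that share was 4.15%. The MYCN percentile was at least 31.4 in the subset of 1468, against a median of 21.7 in MYC-higher pairs. That subset thus left out the lowest-scored MYCN peaks, and its MYCN peaks were not of like rank to those of MYC-higher pairs. The mirror was alike: the MYC peak was 200 bp wide in 462 MYCN-higher pairs (14.4%), against 2.77% of all one-to-one pairs. Without the 733 MYC-higher pairs with a MYCN peak of 200 bp, the median ratio was 1.32 and the MYC peak was wider in 87.2% of 4724 pairs.

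**Figure D2:**
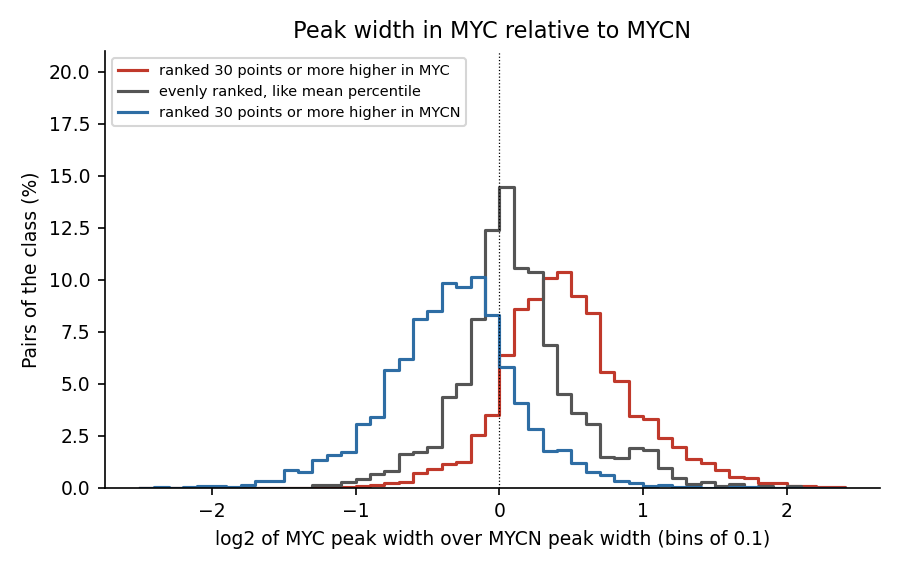
Lines show the share of pairs of each class (y axis, percent) by the log2 ratio of MYC to MYCN peak width (x axis, bins of 0.1). The MYC-higher pairs (red, median ratio 1.36) lie to the right of evenly ranked pairs of like mean percentile (grey, 1.06), and the MYCN-higher pairs (blue, 0.80) to the left.

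The width ratio grew with the rank difference, from a median of 1.31 at 30 to 40 points to 1.38, 1.48, 1.56 and 1.59 in the steps of 40, 50, 60 and 70 points and above. By MYC percentile it varied little, between 1.34 and 1.39. By MYCN percentile it fell, from 1.435 below the 10th percentile to 1.30 at or above the median of MYCN. The largest ratio was at a site on chromosome 5, where a MYC peak of 1065 bp at 72745989 to 72747053 covered a MYCN peak of 207 bp, with scores of 400 and 55. On chromosome 23 a MYC peak of 1019 bp at 30623286 to 30624304 covered a MYCN peak of 200 bp, with scores of 248 and 31. Sites on chr3:9406123-9407079, chr21:12964378-12965295 and chr17:23891997-23892908 had ratios of 4.67, 4.59 and 4.56. Each of these MYCN peaks was 200 to 207 bp wide, at or near the smallest width called.

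At 595 of the MYC-higher pairs (10.9%, against 35% of all one-to-one pairs) the peak was narrower in MYC. The lowest ratio, 0.447, was on chromosome 8, where a MYC peak of 367 bp at 40666592 to 40666958 scored 100 and a MYCN peak of 821 bp at 40666637 to 40667457 scored 48. On chromosome 17 a MYC peak of 348 bp at 8163264 to 8163611 scored 267, against 96 for a MYCN peak of 772 bp. On chromosome 6 a MYC peak of 297 bp at 34817814 to 34818110 scored 220, against 70 for a MYCN peak of 644 bp. Rank and width thus moved in opposite directions at these sites.

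Sites called in the MYC list alone were more frequent around MYC-higher pairs than around the other classes. The list-only peaks, which overlap no peak of the other list, could not enter as pairs. Their scores did count in the percentiles, which were taken within each whole list. Of those within 50 kb of a MYC-higher pair, 9336 were MYC-only and 3503 MYCN-only, a MYC-only share of 72.7% (95% Wilson interval 71.9 to 73.5). The share was 66.5% (65.9 to 67.2) around evenly ranked pairs, 66.6% (65.1 to 68.0) around those of like mean percentile, and 57.1% (56.0 to 58.3) around MYCN-higher pairs. Over the chromosomes as a whole it was 64.1%. A MYC-only peak lay within 50 kb of 87.2% of MYC-higher pairs and a MYCN-only peak within 50 kb of 54.4%, against 80.8% and 59.4% for evenly ranked pairs. The intervals treat peaks as independent, which neighbouring peaks are not, and a peak near pairs of several classes counts for each.

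When each list-only peak was assigned to its nearest one-to-one pair alone, within 50 kb, the MYC-only share followed the rank difference of that pair. It was 73.8% (70.5 to 76.8) beside pairs 50 points or more higher in MYC and 71.7% (70.1 to 73.3) beside pairs 30 to 50 points higher. It was 64.8% (63.8 to 65.8) beside pairs within 5 points. Beside pairs higher in MYCN it was 52.3% (49.9 to 54.6) at 30 to 50 points and 43.9% (39.6 to 48.2) at 50 points or more. Among pairs with a mean percentile between 33.2 and 53.4, the share ran from 41.4% in the most MYCN-sided class to 72.2% in the most MYC-sided class. Among them it did not rise at every step. It was 57.0% at 30 to 50 points higher in MYCN and 56.5% at 15 to 30 points. On the MYC side it was 67.2% at 5 to 15 points, 67.0% at 15 to 30 points and 72.4% at 30 to 50 points. The list-only peaks come from the same 2 libraries as the ranks.

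**Figure D3:**
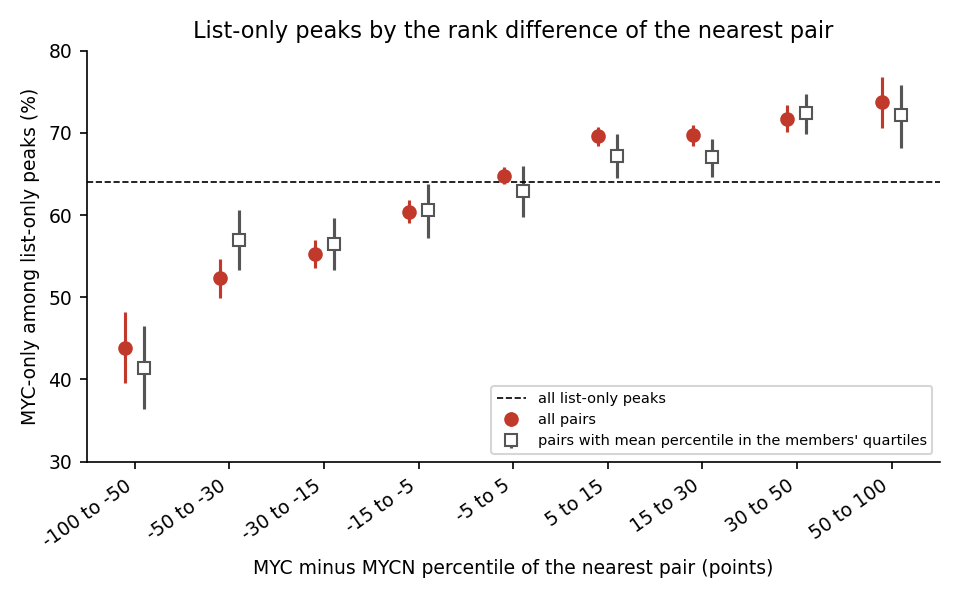
Points give the MYC-only share of list-only peaks (y axis, percent, axis from 30) by the MYC minus MYCN percentile of the nearest pair within 50 kb (x axis), with 95% Wilson intervals. Filled points (all pairs) climb from 43.9% at the most MYCN-sided class to 73.8% at the most MYC-sided class, open squares show pairs of middle mean percentile, and the dashed line is the share over all list-only peaks, 64.1%.

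Neighbouring shared sites leaned the same way, though by little. Within 50 kb, MYC-higher pairs had a median of 5 other one-to-one pairs, and 13.4% of these neighbours were themselves MYC-higher pairs, against 10.3% of all one-to-one pairs. A neighbour near several pairs counts once for each of them. Counted in that way, the share among neighbours was 10.5% around all one-to-one pairs and 9.94% around evenly ranked pairs. Around evenly ranked pairs of like mean percentile it was 10.4%, and around MYCN-higher pairs it was 7.65%. The mean percentile difference of the neighbours had a median of 7.46 points around MYC-higher pairs, 4.05 around evenly ranked pairs and -0.02 around MYCN-higher pairs. Of the 5457 sites, 2563 (47.0%) had another within 50 kb, and 37.7% of all one-to-one pairs had a MYC-higher pair within that distance. No one-to-one pair of any kind lay that near to 135 of the sites (2.47%), against 2.93% of all pairs. Linked at 50 kb, 2894 stood alone and 227 fell into 40 chains of 5 or more. Chains of another class are not given beside them, so these counts are a description only.

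The largest chain held 10 MYC-higher pairs over 188 kb on chromosome 20, at 32013800 to 32201465. The MYC percentile exceeded the MYCN percentile in 18 of the 19 pairs there, a direction that the rule fixed for the 10 MYC-higher pairs. Over all one-to-one pairs the median difference was 2.66 points towards MYC. In the chain 7 peaks were MYC-only and 0 were MYCN-only. Differences ran from 31.0 to 57.4 points. The largest was at 32083334 to 32084129, where the MYC peak was 796 bp wide and scored 135, and the MYCN peak was 246 bp wide and scored 21. Among the 10 MYC-higher pairs the highest MYC score was at 32166531 to 32166880, with scores of 302 and 101. The MYCN-only peak nearest to any of the 10 sites was 376416 bp away.

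**Figure D4:**
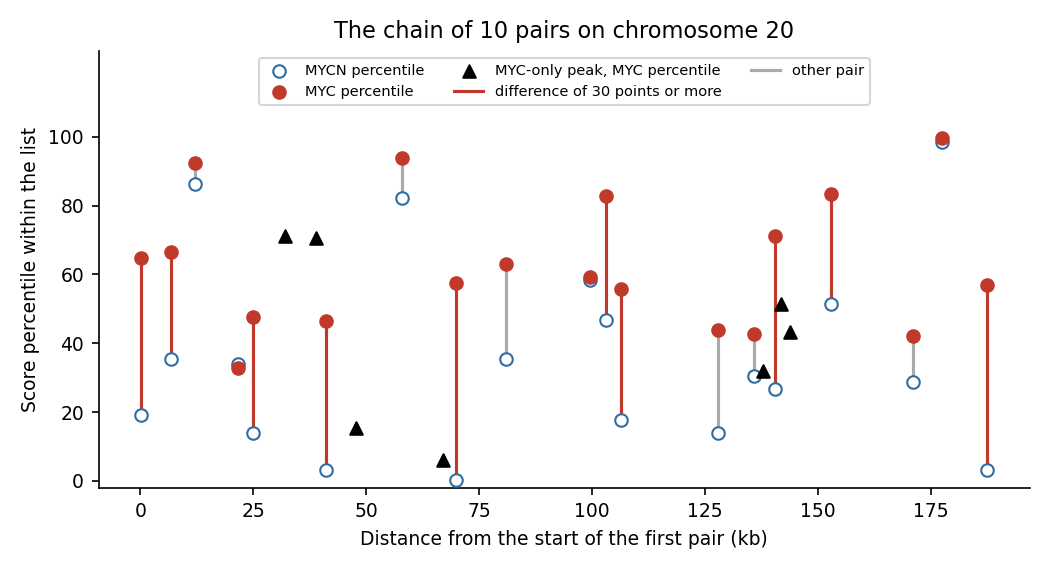
The chain on chromosome 20, with distance from the start of its first pair in kb on the x axis and the score percentile within each list on the y axis. Lines join the MYCN percentile (open) to the MYC percentile (filled) of each of the 19 pairs, red for the 10 MYC-higher pairs. Triangles are the 7 MYC-only peaks. The filled point is the upper one in 18 pairs, as the rule required for the 10 red ones.

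The second chain held 9 of the 23 one-to-one pairs on chr22:1289271-1503489, with differences of 33.0 to 48.8 points. Among these 9, the sites with the highest MYC scores were at 1323496 to 1323865 and 1363309 to 1363665. They scored 293 and 283 in MYC against 80 and 70 in MYCN. The MYC percentile was the higher one in 17 of the 23 pairs, the 9 MYC-higher pairs among them. That chain also had 7 MYC-only peaks and 0 MYCN-only peaks, and 1 pair in it stood higher in MYCN by 30 points or more. The third held 8 of 14 pairs on chr12:9448964-9555616. It had 4 MYC-only peaks and 1 MYCN-only peak, and 1 pair in it stood higher in MYCN by 30 points or more. Its leading site, at 9513630 to 9514013, scored 358 in MYC and 59 in MYCN, a difference of 62.6 points. The MYC percentile was the higher one in only 8 of the 14 pairs. These were the 8 MYC-higher pairs themselves, for which the rule fixed the direction, so no other pair of that chain leaned to MYC.

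The 1 Mb windows with the most MYC-higher pairs included the places of the first and second chains. Chromosome 22 at 1 to 2 Mb held 17 among 61 pairs (27.9%), with 30 MYC-only and 3 MYCN-only peaks. Chromosome 20 at 32 to 33 Mb held 16 among 56 (28.6%), with 35 and 3. Chromosome 4 at 7 to 8 Mb held 15 among 66 (22.7%), with 34 and 7. In the 1280 windows with at least 20 pairs, the median share was 9.09% (quartiles 4.65 and 14.6), and 104 of these windows held 0.

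MYC-higher pairs were found on all 25 chromosomes, with the highest share on chromosome 4 and the lowest on chromosome 1. On chromosome 4, 256 of 1752 pairs were MYC-higher, a share of 14.6% (13.0 to 16.3), and on chromosome 1, 164 of 2463, a share of 6.66% (5.74 to 7.71). The interval lay above the share over all pairs on 5 chromosomes and below it on 4. On chromosome 1 the MYCN-higher pairs also numbered 164, and on the other 24 chromosomes they were fewer than the MYC-higher pairs. That order rested on the ranking too, since the MYC-higher pairs were the more numerous on only 8 chromosomes with percentiles taken among the pairs and on 9 with the trimmed list. Chromosomes 16 (12.2%) and 19 (11.9%) followed chromosome 4, and chromosomes 12 (8.45%) and 9 (8.74%) came next to chromosome 1 at the low end. The interval of chromosome 4 overlapped that of chromosome 16, and the interval of chromosome 1 overlapped that of chromosome 12.

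Within chromosome 4 the sites gathered in the first 22 Mb, where 189 of 995 pairs were MYC-higher (19.0%, interval 16.7 to 21.5), against 67 of 757 after that limit (8.85%, 7.03 to 11.1). The MYCN-higher pairs there numbered 23 before the limit and 76 after it, so after it they outnumbered the MYC-higher pairs. The limit was known from an earlier look at these lists. In the first 2 Mb of the chromosomes the share was 12.3% (298 of 2413 pairs), in the last 2 Mb 9.89% (241 of 2436) and in between 10.2%. Across the 25 chromosomes, the share of MYC-higher pairs and the MYC-only share of list-only peaks had a Pearson correlation of 0.73 and a Spearman correlation of 0.65 (0.74 and 0.62 over 24 without chromosome 4). The chromosomes share the same pair of libraries and their depths, so this is a description.

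**Figure D5:**
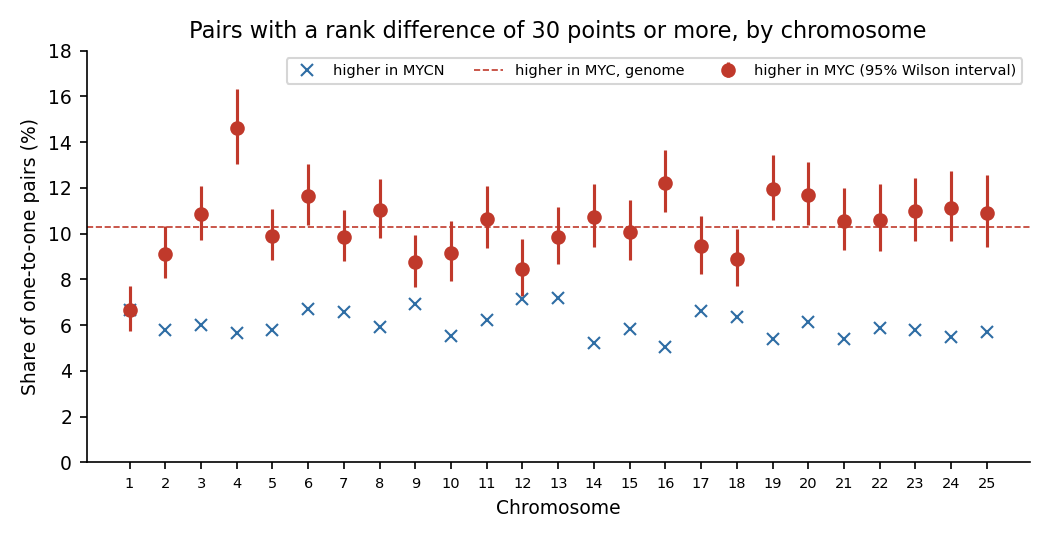
Filled points give the share of one-to-one pairs of each chromosome that were MYC-higher (y axis, percent), with 95% Wilson intervals, crosses the share that were MYCN-higher, and the dashed line the MYC-higher share of all pairs, 10.3%. Chromosome 4 is highest at 14.6% and chromosome 1 lowest at 6.66%, where the cross lies under the point.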

How the data were processed

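ATAC-seq was analysed from 1 MYCN and 1 MYC library. Per the submitters' processing notes, reads were aligned with Bowtie2 2.2.1 to danRer7 and peaks called with MACS2 2.1.0. What was done about duplicates, the Tn5 offset or a control library, and all settings, are not given in the sources used here. For each library the authors deposited 1 list, with a whole-number score per peak of 13 or more whose scale no header states, so scores were compared only as percentiles within each list. Starts are counted from 1. Pairs, ranks and distances (edge to edge) were obtained in Python 3.11.15 with numpy 2.4.6, pandas 2.3.3 and scipy 1.17.1, tested on simulated lists, and the pairs checked with bedtools 2.31.1. Figures used matplotlib 3.10.9. Depth is unknown from these lists. Intervals are 95% Wilson intervals.

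The pairs, classes and comparisons were chosen with earlier results of these data known. Named sites were the 12 largest differences, the 8 highest MYC scores, the 5 largest and 3 smallest width ratios, the 3 largest chains, the 3 pairs on either side of the threshold and the 3 windows with the most sites. The 9 alternatives were thresholds of 20 and 40 points, ranks among the pairs, 50% reciprocal overlap, the MYC list trimmed to the length of MYCN, a MYC percentile of at least 50, merging within 100 bp, and distances of 10 and 200 kb. The subset of like mean percentile, the nearest-pair assignment, the shares among neighbouring pairs, the exclusion of MYCN peaks of 200 bp and the chromosome ends were added after seeing the data. Comparisons of motifs and genes, intended at first, were left out because a danRer7 sequence and annotation were not used here.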

Additional observations from a re-analysis of the deposited data

How the results depend on the processing

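The count of MYC-higher pairs was 10268 at 20 points and 2537 at 40 points, which follows from the threshold, and within 1.5 times the reported count under the other 5 settings that could change it. Ranking among the pairs kept 3750 of the 5457 pairs and the trimmed list 3758. The MYC-only share within the distance was 71.1% at 20 points, 73.6% with ranks among the pairs, 66.1% with 50% reciprocal overlap, 62.2% with the MYC list trimmed and 68.8% at 200 kb. Reciprocal overlap and trimming also move the share over all list-only peaks, to 60.1% and 51.2%, and the share around MYCN-higher pairs, to 54.8% and 44.9%. The share around MYC-higher pairs was above that over all list-only peaks, and the share around MYCN-higher pairs below it, under each of the alternatives run. The median width ratio was 1.28 at 20 points, 1.43 at 40 points, 1.31 with reciprocal overlap, 1.39 with the trimmed list and 1.32 without MYCN peaks of 200 bp. The share of MYC-higher pairs with another within the distance was 65.5% at 20 points, 28.9% at 40 points, 39.6% with ranks among the pairs, 42.2% with reciprocal overlap, 38.1% with the trimmed list, 42.6% at a MYC percentile of 50 or more, 12.1% at 10 kb and 84.5% at 200 kb. This share grows with the number of sites and with the distance. Chromosome 4 had the highest and chromosome 1 the lowest share of MYC-higher pairs under all 7 settings that change the pairs. With 1 library per transgene there was no replicate to leave out or to pair. The unknown depth limits every score and rank.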

Other observations

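Some MYC-higher pairs followed each other with no other one-to-one pair between them, a search made after the values were seen. Of these unbroken series, 2 held 5 pairs, 9 held 4, 81 held 3 and 513 held 2. Most MYC-higher pairs, 4142, had no other directly next to them in the order of one-to-one pairs. The series of 5 lay on chromosome 3 at 28200317 to 28245380, with differences of 35.1 to 59.1 points, and on chromosome 7 at 32519324 to 32561119, with differences of 35.6 to 78.3 points. The first held 1 MYC-only and 2 MYCN-only peaks, and the second 2 and 0. Of the 9 series of 4, only 2 are given here, as examples. One on chromosome 5 at 282232 to 397053 was interspersed with 10 MYC-only and 3 MYCN-only peaks. The other, on chromosome 6 at 12620890 to 12650728, had 0 list-only peaks of either kind. Series of another class of pairs are not given, so the counts of series are a description.

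Among windows of 1 Mb with at least 20 pairs, the highest shares of MYC-higher pairs were on chromosome 16 at 41 to 42 Mb, with 13 of 32 pairs (40.6%), and on chromosome 5 at 0 to 1 Mb, with 9 of 28 (32.1%), and at 15 to 16 Mb, with 7 of 22 (31.8%). The window on chromosome 5 at 0 to 1 Mb also held 51 MYC-only peaks and 6 MYCN-only peaks. These windows were chosen by their shares and describe 1 library of each kind.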
